A study of Rattus norvegicus with 23 samples.

Results

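Left ventricular RNA of spontaneously hypertensive rats (SHR) and of Wistar-Kyoto rats (WKY) was compared at 16 months of age, with 4 arrays per strain. The 8 arrays are those titled SHR16 and WKY16, replicates 1 to 4 of each, out of 23 arrays of both strains at 12, 16 and 20 months. SHR is a rat line bred to homozygosity whose blood pressure rises without treatment, and WKY is the related inbred strain used as its normotensive control. No treatment is given for either group, and the labels name no sex. The labels call the arrays samples without tying them to individual animals. The p-values below therefore refer to the spread over arrays, part of which may be technical. Heart failure is a keyword of the study, but the labels give no blood pressure, heart weight or failure status for any rat. The arrays therefore stand for the 2 strains at 1 age, not for graded disease.

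A ventricle that works against raised pressure is known to thicken, to lay down collagen and other matrix between its muscle cells, and to switch on genes that the fetal heart uses. Among these fetal genes are the atrial natriuretic peptide gene Nppa and the skeletal alpha-actin gene Acta1. The healthy adult heart takes most of its energy from the oxidation of fatty acids in mitochondria, and the failing heart is known to lower the enzymes of that pathway. The comparison asks which of these programmes differed between the strains at 16 months.

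The 300 bases around the RefSeq transcription starts of 3 genes on which the results turn are shown first, 2 that were higher in SHR and 1 that was lower. They come from the GRCr8 assembly of another strain, the Brown Norway rat, and not from these animals. Each runs from 250 bases before the start to 50 after it, in the direction of the gene. Capitals mark matches found on a search of both strands. The motifs searched were the core promoter element TATAAA, the CArG box that serum response factor binds, the element CATTCC of TEAD factors, and the site AGGTCA of nuclear receptors. No match overlapped another.
Nppa, chr5:163711934-163712233, plus strand: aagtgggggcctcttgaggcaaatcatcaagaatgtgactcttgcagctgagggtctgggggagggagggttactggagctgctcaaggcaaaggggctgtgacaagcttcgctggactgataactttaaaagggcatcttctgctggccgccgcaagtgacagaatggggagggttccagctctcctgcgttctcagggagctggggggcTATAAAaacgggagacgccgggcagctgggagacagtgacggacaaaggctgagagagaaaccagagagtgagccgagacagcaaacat
Acta1, chr19:68784145-68784444, minus strand: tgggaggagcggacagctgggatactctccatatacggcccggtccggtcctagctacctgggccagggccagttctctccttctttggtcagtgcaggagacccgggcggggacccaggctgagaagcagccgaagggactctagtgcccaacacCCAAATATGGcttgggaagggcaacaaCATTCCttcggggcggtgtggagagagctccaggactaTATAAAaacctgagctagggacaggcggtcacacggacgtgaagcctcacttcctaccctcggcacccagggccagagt
Acadvl, chr10:55236656-55236955, minus strand: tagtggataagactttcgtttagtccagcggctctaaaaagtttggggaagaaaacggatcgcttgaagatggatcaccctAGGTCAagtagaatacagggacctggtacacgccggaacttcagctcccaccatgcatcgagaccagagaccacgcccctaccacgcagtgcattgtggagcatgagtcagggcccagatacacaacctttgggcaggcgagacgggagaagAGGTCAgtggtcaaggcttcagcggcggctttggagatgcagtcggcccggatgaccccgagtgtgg
TATAAA stood 39 bases before the start in Nppa and 29 bases before it in Acta1, and 14.2% of 33469 rat promoters of this length hold it. The Acta1 promoter also held a CArG box 94 bases before the start, found in 1.64% of promoters, and CATTCC 67 bases before it, found in 14.2%. The Acadvl promoter held AGGTCA 169 and 17 bases before the start, and 16.2% of promoters hold that motif. The Acadvl gene as a whole reaches base 55236786 in RefSeq, which lies before the start used here. Its distances therefore hold for this start only, and the nearer match lies inside the longer gene. These matches describe the letters only, and no binding was measured.

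Strain was confounded with the run. The SHR arrays of 16 months were hybridized with cocktail 1, replicates 1 and 2 on day 2 and replicates 3 and 4 on day 3, and the WKY arrays of 16 months with cocktail 2 on day 5. The WKY arrays of 16 months were also the only group of the series on station 2, all others having been on station 1, and the array lot differed where it was recorded. In every value below, a strain effect and a run effect cannot be told apart. Spiked bacterial controls, added in fixed amounts, had median log2 values of 7.12 to 8.43 on the SHR arrays and 6.66 to 7.0 on the WKY arrays. For beta-actin, the 3' over 5' probe set ratio, a sign of RNA or cDNA length, ran from 1.09 to 1.37 in SHR and from 1.55 to 1.86 in WKY. Each of these 2 measures, and the median intensity of the arrays, gave p = 0.0286 in an exact two-sided permutation test, the smallest p that 4 against 4 arrays allow, and 0.0476 after adjustment over 5 measures. The GAPDH ratio overlapped between the strains, at 1.23 to 1.34 against 1.29 to 1.33 (exact permutation p = 0.429). The hexokinase ratio went the way of the actin ratio, at 2.54 to 3.53 in SHR against 3.2 to 5.82 in WKY (exact permutation p = 0.0571). The part of these differences in the results was not tested.

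Of 7277 probe sets tested, 1408 differed between the strains at an adjusted p below 0.05, which is 19.3%. In SHR 833 were higher (11.4%) and 575 lower (7.9%). The share that was higher was 59.2%, but 46.6% after quantile normalization and 36.1% with the arrays centred on their medians, so the balance of directions depends on the scaling. Changes of at least 1 on the log2 scale, a doubling, were seen for 39 probe sets that were higher and 14 that were lower. Along the first principal component of the 8 arrays, with 54.3% of their variance, all SHR arrays lay on one side and all WKY arrays on the other. Counted by gene, with each of 4170 genes represented by its brightest probe set, 454 genes (10.9%) were higher and 362 (8.68%) lower, and the median change over all genes was 0.03. The gene lists below are read against these 2 shares.

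**Figure D1:**
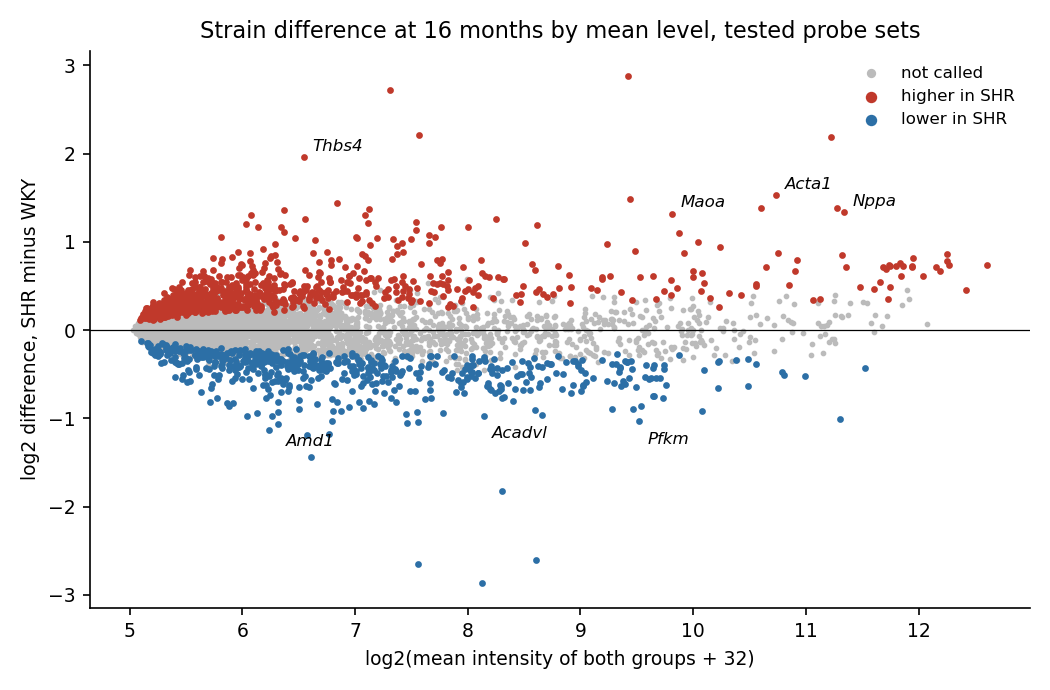
The log2 difference between the strains at 16 months (vertical axis, SHR minus WKY) is plotted for each tested probe set against log2 of the mean intensity of both groups plus 32. Red points are the 833 probe sets that were higher in SHR, blue points the 575 that were lower, and grey points were not called.

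The fetal genes Acta1 and Nppa were higher in SHR, while most of the list they belong to was not called. Acta1, the actin of skeletal muscle and of the fetal heart, read 2399.7, 2945.3, 2388.3 and 2280.8 in SHR and 904.5, 787.0, 758.7 and 921.4 in WKY. The lowest SHR array lay far above the highest WKY array, and the log2 difference was 1.53 ± 0.11 (SE, adjusted p = 3.12e-10 in limma). Nppa read 2799.1, 5242.7, 3800.5 and 2932.0 in SHR against 1121.9, 1969.5, 1222.0 and 1400.9 in WKY, a difference of 1.34 ± 0.18 (adjusted p = 5.86e-06). The groups did not overlap, and in each strain replicate 2 was the highest. The other 3 Nppa probe sets were also higher, by up to 2.18. Nppb, the gene of the related B-type peptide, was not called. Its levels of 816.6, 1308.6, 1253.2 and 896.6 in SHR overlapped those of 761.5, 1016.6, 823.4 and 948.6 in WKY (log2 difference 0.24 ± 0.14, adjusted p = 0.261).

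**Figure D2:**
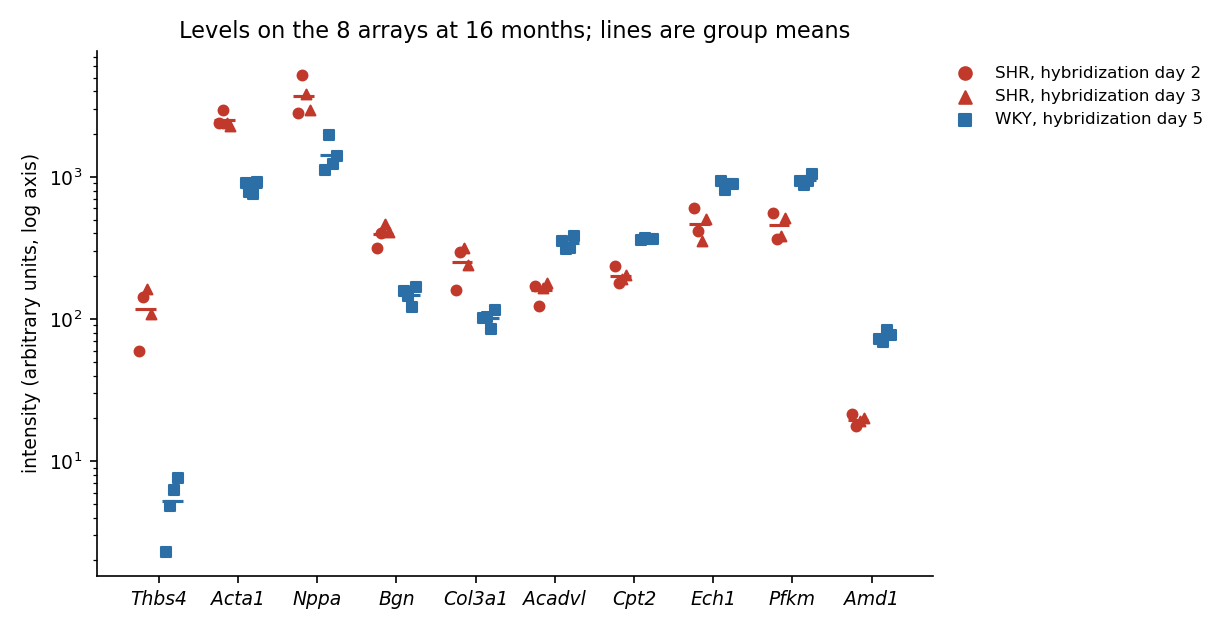
Intensities in arbitrary units (log axis) of 10 genes on the 8 arrays at 16 months are shown for SHR in red and WKY in blue, with marker shapes for the hybridization day and lines for group means. The 5 genes on the left were higher on every SHR array than on any WKY array, and the 5 on the right were lower.

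Of the 19 tested genes of the wall stress and fetal gene list, 6 were higher and 0 lower, with a median of 0.18. Beside Acta1 and Nppa these were Csrp3, a muscle LIM protein of the Z-disc (0.54), Uchl1, a ubiquitin hydrolase (0.49), Ckb, the brain-type creatine kinase (0.34), and Gdf15, a stress-induced cytokine (0.22). The calls of Ckb and Gdf15 were lost under several alternatives. The 2 myosin heavy chains of heart muscle gave no shared direction. Myh6, the fast alpha chain that prevails in the adult rat ventricle, read 3201.4, 2200.9, 2036.0 and 2552.1 in SHR and 3611.0, 3119.1, 3148.0 and 3441.4 in WKY, a difference of -0.43 ± 0.13 (adjusted p = 0.0176). The groups overlapped through SHR replicate 1, and the call was lost under 4 alternatives. Of its 2 other probe sets, 1 was lower (-0.92) and 1 higher (0.57). Myh7, the slow beta chain of the fetal and stressed heart, was not called by its brightest probe set (0.07 ± 0.14, adjusted p = 0.785). That value turned to -0.54 after quantile normalization, with an adjusted p of 0.000594, while its other probe set was lower (-0.52). The direction of Myh7 is therefore not settled on these arrays.

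Matrix genes were higher in SHR. Of 46 tested genes of the matrix and fibrosis list, 18 were higher (39.1%, against 10.9% of all genes) and 1 was lower (2.17%, against 8.68%), with a median of 0.24. Thbs4, a thrombospondin secreted into the matrix of muscle and tendon, had the largest log2 rise among the genes represented by their brightest probe set whose groups did not overlap. It read 59.3, 142.6, 162.3 and 107.9 in SHR and 2.3, 4.8, 6.3 and 7.6 in WKY, a difference of 1.96 ± 0.16 (adjusted p = 2.5e-09). SHR replicate 1 was the lowest of its group, every SHR array was far above every WKY array, and all WKY arrays were dim. Without that replicate the difference was 2.18.

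Among small proteoglycans that bind collagen, Bgn (biglycan) read 313.9, 405.7, 465.0 and 409.6 in SHR and 158.3, 145.4, 120.6 and 168.1 in WKY, a difference of 1.25 ± 0.15 (adjusted p = 1.81e-06). Dcn (decorin) was higher by 0.87 ± 0.15, a call shared by 1 of its 3 other probe sets. Loxl1, which cross-links elastin, read 191.4, 246.0, 326.0 and 311.1 in SHR and 99.5, 131.2, 75.9 and 97.5 in WKY (1.17 ± 0.15). For each of Bgn, Dcn and Loxl1 the lowest SHR array was above the highest WKY array.

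The fibrillar collagens followed. Col3a1, the chain of type III collagen, read 158.8, 295.8, 313.8 and 240.9 in SHR and 102.2, 103.4, 84.4 and 115.9 in WKY, a difference of 1.06 ± 0.17 (adjusted p = 0.000109). Col1a2, the alpha-2 chain of type I collagen, was higher by 0.84 ± 0.15 and its groups did not overlap. Col1a1, the alpha-1 chain, missed the threshold with its brightest probe set: 184.2, 281.1, 361.6 and 271.8 in SHR overlapped 203.9, 214.7, 134.8 and 133.5 in WKY (0.58 ± 0.22, adjusted p = 0.0604). Of its 3 other probe sets 2 were called higher, the largest by 0.99. Without SHR replicate 1 the brightest probe set was called too, at 0.74 with an adjusted p of 0.0242.

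Other matrix members were glycoproteins and inhibitors. Postn (periostin), secreted by activated fibroblasts, was dim and read 11.5, 22.3, 37.2 and 25.5 in SHR against 2.6, 7.7, 1.6 and 3.9 in WKY (0.63 ± 0.11). Timp1, an inhibitor of matrix metalloproteinases, read 79.7, 141.6, 119.6 and 92.5 against 44.3, 58.8, 42.6 and 46.5 (0.79 ± 0.11, adjusted p = 1.33e-05). Fn1 (fibronectin) was higher by 0.43 ± 0.10, although SHR replicate 1 at 65.5 lay below WKY replicate 2 at 68.2. Mgp, the matrix Gla protein that inhibits calcification, was higher by 1.00, the laminin gamma-1 chain Lamc1 by 0.79 and the growth factor Tgfb2 by 0.46. Tgfb2 was dim in WKY, at 16.5 on replicate 2 and 2.8 to 4.1 on the other arrays. Its call was lost with the SHR arrays of day 2 alone. Sparc, which binds collagen in the matrix, was higher by 0.85 with its brightest probe set but lower by 0.52 with another, so its direction is not settled. The 1 lower member was Lamb2, the laminin beta-2 chain (-0.65 ± 0.13), though its other probe set was not called. Spp1 (osteopontin), a matrix protein of the same list, was not called (0.24 ± 0.09, adjusted p = 0.0548).

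SHR replicate 1 stood below its group for matrix genes. It was the lowest SHR array for 16 of the 18 matrix genes that were higher, and replicate 4 for the other 2. Over all 46 members the median log2 value against the WKY mean was 0.10 on SHR replicate 1, against 0.27, 0.35 and 0.21 on replicates 2, 3 and 4. The WKY arrays ran from -0.09 to 0.05. Without replicate 1, 23 matrix genes were called higher in place of 18, and the count was 16 to 19 when another array of either strain was left out. The same array was the highest of its group in 10 of the 17 fatty acid genes that were lower, described below.

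**Figure D3:**
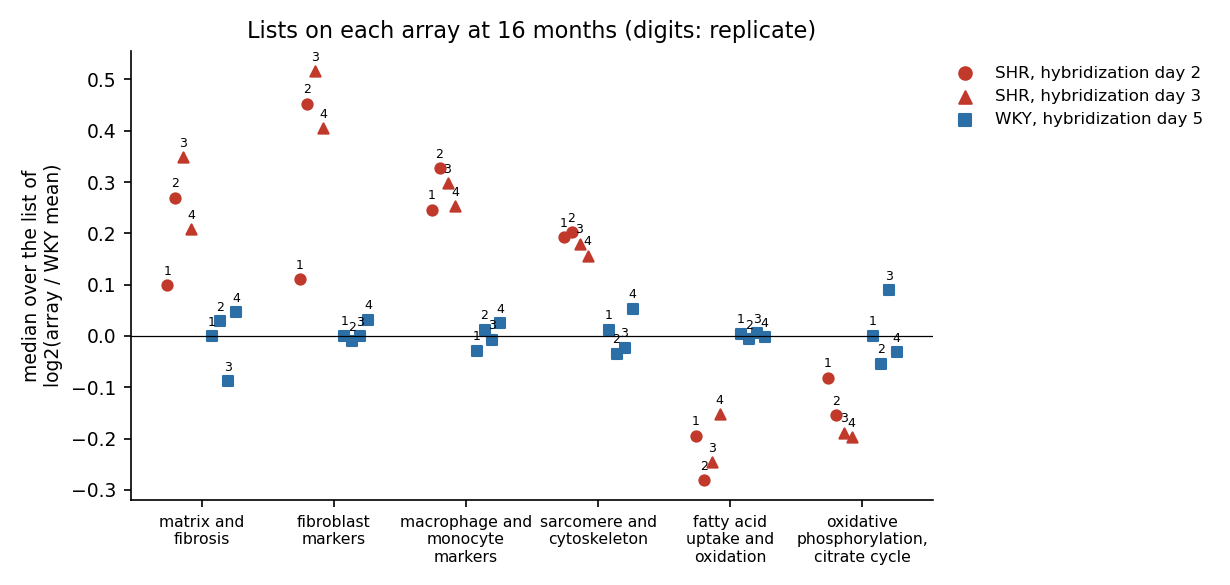
For 6 lists the median over the tested members of log2 intensity on an array minus the WKY mean of 16 months (vertical axis) is shown for each array, with the replicate number above each point, colours for strain and shapes for hybridization day. SHR replicate 1 is the lowest SHR point for the matrix list (0.10) and for fibroblast markers (0.11), and every SHR point of the fatty acid list lies below every WKY point.

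Markers of cell types moved with the matrix list. Of 11 tested fibroblast markers 5 were higher and 0 lower (median 0.41): Col3a1, Dcn and Col1a2, which the matrix list also holds, the surface protein Thy1 (0.41) and the calcium-binding S100a4 (0.41). Their summed intensity ran from 3004 to 3876 in SHR and from 1846 to 1960 in WKY. Of 11 macrophage and monocyte markers 7 were higher and 0 lower (median 0.37), with sums of 700.2 to 1160 in SHR and 397.9 to 455.2 in WKY. No tested marker of either list was at 0 on every array of a group. In bulk tissue more cells of a type and more RNA per cell cannot be told apart, and the part of these markers in the matrix result was not tested.

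The macrophage markers were led by Lyz2 (lysozyme) and C1qb, a chain of the complement protein C1q. Lyz2 read 198.9, 450.9, 422.8 and 238.7 in SHR and 101.7, 151.5, 110.0 and 123.1 in WKY, a difference of 1.17 ± 0.23 (adjusted p = 0.00061). C1qb read 151.1, 232.1, 197.5 and 163.6 against 68.6, 77.2, 67.2 and 82.4, a difference of 1.03 ± 0.14 (adjusted p = 5.71e-06). In both genes SHR replicates 2 and 3 were the highest and no array overlapped. Ctss, a lysosomal cathepsin (0.67), C1qc (0.50), the galectin Lgals3 (0.45) and the lipopolysaccharide co-receptor Cd14 (0.37) were also higher. Of 44 genes of the inflammation and complement list 10 were higher and 3 lower (median 0.06). With arrays centred on their medians 6 were higher and 4 lower, and 0 were lower without SHR replicate 2 (7 higher) or WKY replicate 1 (8 higher). They included C1qb, C1qc, Cd14 and Serping1, the inhibitor of C1 (0.61).

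Other cell types gave smaller or mixed counts. Of 9 endothelial markers 3 were higher and 1 lower. Cav1 (caveolin-1), which coats the small pits of endothelial and fat cell membranes, read 54.7, 52.2, 57.9 and 99.1 in SHR and 15, 16.4, 9.8 and 3.5 in WKY (1.17 ± 0.15, adjusted p = 3.22e-06). The endothelial genes Flt1 (0.35) and Pecam1 (0.29) were higher and Icam2 was lower (-0.27). The calls of these 3 were each lost under at least 1 alternative. Of 9 smooth muscle and pericyte markers 0 were called. Among 12 lymphocyte markers 2 were higher, the interleukin-2 receptor chain Il2rb (0.58) and Cd4 (0.31), which rat macrophages also carry. Of 5 erythrocyte markers 1 was lower, Hbb-b1 (-0.62 ± 0.14). Its groups overlapped, and its call was lost with the SHR arrays of day 2 alone. Hba-a3, an alpha-globin gene outside that list, was also lower: it read 16.5, 12.1, 9.6 and 10.7 in SHR and 42.4, 63.4, 50.1 and 65.2 in WKY. Globin genes are near-identical copies, and probe sets cannot always tell them apart.

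Muscle cell markers were bright in both strains, and the tissue is labelled as ventricle. Of 16 cardiomyocyte markers 4 were higher and 3 lower, with sums of 36798 to 51757 in SHR and 33667 to 38925 in WKY. Their median of 0.14 turned to -0.21 after quantile normalization and to -0.02 after cyclic loess. Of 4 atrial markers 1 was higher, Nppa itself, which is one of the genes described above. The sums of these 4 markers were 2927 to 5363 in SHR and 1195 to 2121 in WKY. Nppa, at the levels given above, made up nearly all of these sums, and the other atrial markers were not called.

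Fatty acid genes were lower in SHR. Of 41 tested genes of fatty acid uptake and oxidation, 17 were lower (41.5%, against 8.68% of all genes) and 2 higher (4.88%), with a median of -0.19. The lower genes are given in the order of the pathway. Acsl1 (-0.67), which activates long-chain fatty acids, and the transporter Slc27a1 (-0.36) act at entry. Cpt1b (-0.39) and Cpt2 (-0.77) are the carnitine palmitoyltransferases that carry the chains into mitochondria. Cpt2 read 234.5, 177.9, 190.6 and 203.3 in SHR and 360.8, 372.1, 363.9 and 364.0 in WKY, with a difference of -0.77 ± 0.10 (adjusted p = 3.64e-06). The WKY arrays lay within a narrow span, and every SHR array was below them.

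Of 4 acyl-CoA dehydrogenases of the first oxidation step, 3 were lower and Acadl, for long chains, was not called (-0.14, limma adjusted p = 0.303). Acadvl, for very long chains, read 171.9, 122.9, 164.5 and 178.7 in SHR and 356.2, 309.0, 316.1 and 384.9 in WKY, a difference of -0.97 ± 0.12 (adjusted p = 4.43e-06). The group means of 159.5 ± 25.1 and 341.6 ± 35.6 (SD, n = 4 each) differed 2.14-fold. Acadm, for medium chains, was at -0.58 ± 0.14 and Acads, for short chains, at -0.57 ± 0.10. Etfdh, which passes their electrons to the respiratory chain, was at -0.63 ± 0.12, though its other probe set was not called. None of these 4 genes had overlapping groups, while 21.8% of all probe sets showed no overlap. The 4 genes were named as called ones, and among called probe sets 1140 of 1408 showed no overlap.

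Members of later steps were called in part, with Echs1 (-0.17) and Ehhadh (-0.09) not called and Hadh higher, as given below. The trifunctional protein chains Hadhb (-0.61) and Hadha (-0.54), the thiolase Acaa2 (-0.48) and Acat1 (-0.67), which acts on ketone bodies and acetoacetyl-CoA, all passed the test. Acat1 read 230.9, 340.8, 342.2 and 374.2 in SHR and 509.9, 473.8, 599.3 and 519.9 in WKY. Enzymes for unsaturated chains included Ech1, which read 602.1, 413.4, 351.5 and 501.9 in SHR against 927.8, 813.1, 892.3 and 895.7 in WKY (-0.90 ± 0.12, adjusted p = 4.46e-06), Decr1 (-0.67) and Eci1 (-0.38). The thioesterase Acot2 (-0.48) and the retinoid receptor Rxrg (-0.54) completed the lower members. The other probe set of Acot2 and the 2 others of Rxrg were not called. The calls of Cpt1b, Eci1, Acot2 and Slc27a1 were lost under several alternatives, and those of Rxrg and Acaa2 with the SHR arrays of day 2 alone. The 2 higher members were dim. Pdk4, a kinase that turns off pyruvate oxidation, read 24.1, 12.8, 36.7 and 28.9 in SHR against 12.4, 10.8, 13 and 7.4 in WKY (0.41 ± 0.10), a call lost with day 2 alone. Hadh was at 0.21 ± 0.07 with an adjusted p of 0.0498, and its call was lost in 18 alternatives.

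The fatty acid translocase could not be named cleanly. Of the probe sets tested, 5 are listed by the annotation under both Cd36 and Cd36l1, neighbouring genes of near-identical sequence, and all 5 were lower in SHR. The probe set rc_AA946368_at read 34.8, 35.2, 34.2 and 37.2 in SHR and 475.2, 530.7, 417.8 and 413.7 in WKY, a 13-fold difference of mean intensity (adjusted p = 1.27e-15). The probe set rc_AA925752_at read 19.0, 14.7, 23.4 and 21.9 against 283.1, 335.0, 266.0 and 289.4, a 14.9-fold difference. No array of either strain came near the other group in these 2. The brightest probe set listed under Cd36 alone was dim and overlapped, at 20.3, 6.6, 35.4 and 31.9 in SHR and 24.3, 34.2, 25.8 and 27.6 in WKY (adjusted p = 0.503). It was called lower with the SHR arrays of day 2 alone (-0.41). The other probe set listed under Cd36 alone was dim too and not called (-0.04, limma adjusted p = 0.809). Cd36 takes up long-chain fatty acids, and a defect of it in SHR is known. Which of the 2 genes these 5 probe sets read is not settled by the annotation.

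Respiratory chain and citrate cycle genes were lower by smaller amounts. Of 52 tested genes 16 were lower (30.8%) and 1 higher (1.92%), with a median of -0.16. Ndufv2, a subunit of complex I, read 1005.1, 966.2, 810.2 and 793.3 in SHR and 1335.6, 1282.8, 1526.0 and 1577.4 in WKY (-0.66 ± 0.14, adjusted p = 0.00113). Ndufs7, also of complex I, was at -0.64 ± 0.12 and Cox8b, the heart form of a complex IV subunit, at -0.64 ± 0.13. Sdha of complex II (-0.42), Atp5f1a of the ATP synthase (-0.40), Idh3g (-0.40) and Dlst (-0.54) of the citrate cycle and Pdhb of pyruvate dehydrogenase (-0.40) were lower too. The 1 higher gene was Cox5a, another complex IV subunit (0.53 ± 0.14). This count is the least stable of the large lists. It was 8 without SHR replicate 2, 9 without WKY replicate 2, 10 without WKY replicate 3, and 6 with the SHR arrays of day 3 alone.

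**Figure D4:**
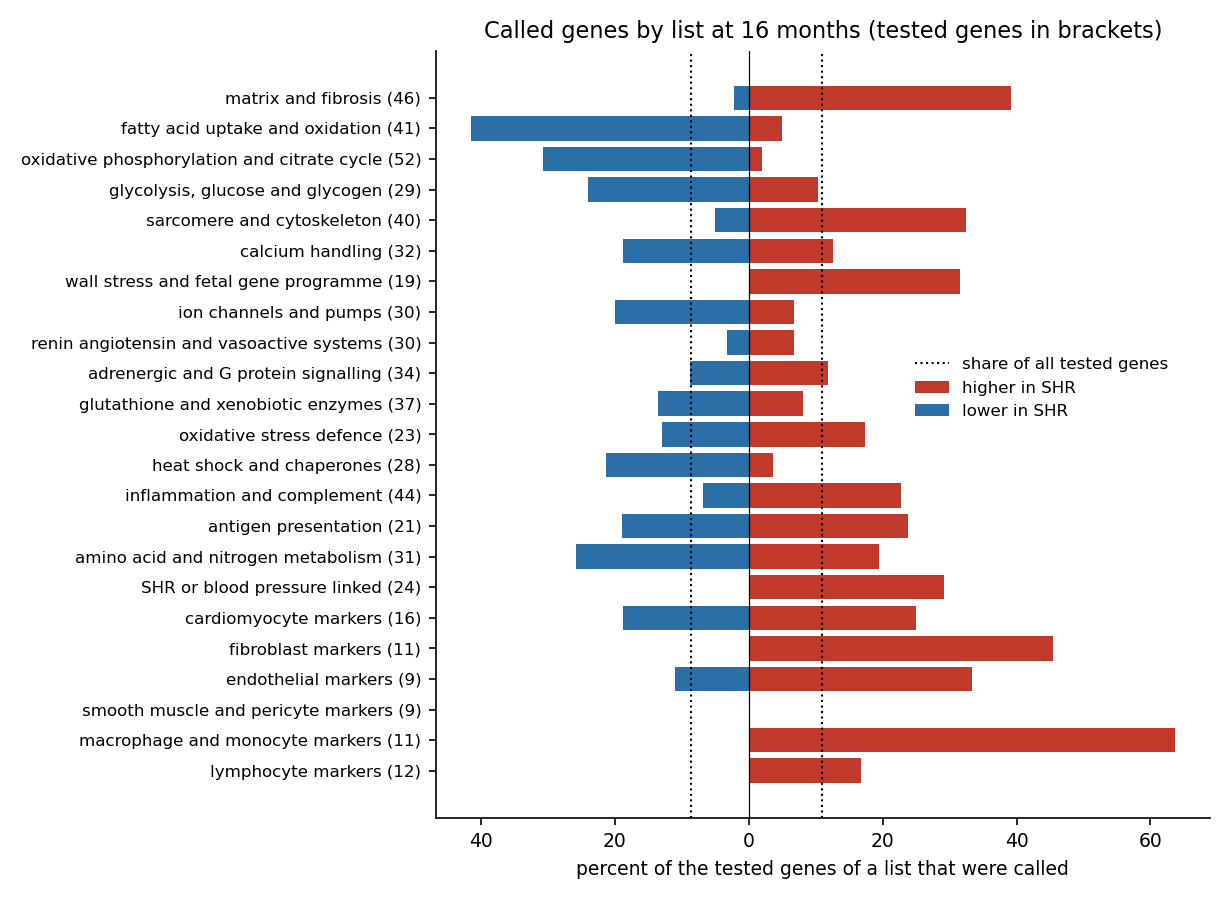
Bars give the percent of a list's tested genes that were higher (red, right) or lower (blue, left) in SHR at 16 months, with the number of tested genes in brackets, and dotted lines mark the shares of all 4170 genes, 10.9% and 8.68%. The matrix list reaches 39.1% on the right and the fatty acid list 41.5% on the left.

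Glucose genes were called in both directions. Of 29 genes of glycolysis, glucose and glycogen 3 were higher and 7 lower, and the median was 0.01. Pfkm, the muscle phosphofructokinase that sets the pace of glycolysis, read 561.4, 363.4, 380.8 and 514.2 in SHR and 931.7, 880.6, 938.1 and 1051.3 in WKY (-1.03 ± 0.15, adjusted p = 1.63e-05), though its other probe set was not called. Pfkp, the platelet form of the enzyme, was higher at 0.49 ± 0.10. The glycogen phosphorylases Pygb (-0.86 ± 0.12) and Pygm (-0.54 ± 0.11) and the insulin-regulated glucose transporter Slc2a4 (-0.64 ± 0.16) were lower. Pgam2 (-0.39), Pkm (-0.35) and the lactate carrier Slc16a1 (-0.49) completed the 7. The call of Slc16a1 was lost under 8 alternatives, that of Pkm under 2, and that of Slc2a4 with the SHR arrays of day 2 alone. The other probe sets of Pfkp, Slc2a4 and Slc16a1 were not called. Eno1, the ubiquitous enolase, was higher at 0.88 ± 0.09, with 1225 ± 108 in SHR and 650.9 ± 42.1 in WKY (SD, n = 4 each), and its other probe set was higher by 1.49. Gpd1, which makes glycerol 3-phosphate, was higher at 0.56 ± 0.14, a call lost with the SHR arrays of day 2 alone.

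Contractile and cytoskeletal genes were higher more often than lower. Of 40 genes 13 were higher (32.5%) and 2 lower (5%), with a median of 0.16. With the SHR arrays of day 3 alone 6 were higher and 2 lower, and after quantile normalization 9 were higher and 4 lower. Tpm4, a non-muscle tropomyosin, read 74.2, 65.4, 72.9 and 71.8 in SHR and 36.8, 40.3, 36.4 and 41.9 in WKY (0.54 ± 0.07, adjusted p = 4.82e-06). The cytoplasmic actin Actg1 (0.63 ± 0.10), the actin-capping Capg (0.65 ± 0.11) and the Z-disc protein Pdlim5 (0.62 ± 0.10) were higher without overlap. The lower genes were Myh6 and Ckmt2, the mitochondrial creatine kinase of muscle (-0.51 ± 0.11).

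The bright sarcomere genes among the 13 differed between the 2 days of the SHR arrays. Actc1, the cardiac actin, read 7488.5 and 7499.1 on the day 2 arrays of SHR, 4914.3 and 4905.9 on those of day 3, and 3619.8, 3104.8, 3749.2 and 3565.7 in WKY. Its difference was 0.79 with all arrays, 1.09 with day 2 alone and 0.48 with day 3 alone, and the last was not called (adjusted p = 0.0817). Tpm1, the muscle tropomyosin, read 7571.4 and 7707.9 on day 2, 4782.6 and 4680.2 on day 3, and 3239.0 to 3770.6 in WKY. Its difference of 0.74 became 1.08 and 0.39 for the 2 days. Tnnt2 (cardiac troponin T, 0.47) and Myl2 (regulatory light chain, 0.45) followed the same order of days. All 4 calls were lost after quantile normalization, where Myl2 turned to -0.17. No SHR array of either day overlapped WKY in these 4 genes.

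Within SHR at 16 months the 2 days were also tested over all probe sets. Of 7277 probe sets 27 differed between day 3 and day 2 (0.371%), 14 higher and 13 lower on day 3, and 1118 had an unadjusted p below 0.05 against 364 expected by chance. Only 6 of the 27 were also called between the strains. For SHR minus WKY at 16 months, 1503 probe sets differed with the SHR arrays of day 2 alone and 849 with those of day 3 alone. The matrix list held 14 higher genes with day 2 alone and 20 with day 3 alone, and the fatty acid list 17 and 15 lower genes.

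Calcium handling genes went both ways. Of 32 genes 4 were higher (12.5%, against 10.9% of all genes) and 6 lower (18.8%, against 8.68%), with a median of 0.02. The balance was not stable: 3 were lower without SHR replicate 2 (4 higher), WKY replicate 1 (3 higher) or WKY replicate 4 (5 higher). Counted by probe set it turned, with 13 of 64 higher and 10 lower. Pln (phospholamban), which restrains the calcium pump of the sarcoplasmic reticulum, read 765.2, 578.9, 731.4 and 774.0 in SHR and 450.7, 454.6, 434.7 and 472.0 in WKY (0.61 ± 0.10, adjusted p = 5.62e-05). The pump itself, Atp2a2, was not called by its brightest probe set, with 3577.0 to 5045.5 in SHR and 3008.9 to 3647.1 in WKY (0.29 ± 0.14, adjusted p = 0.173). That value turned to -0.25 after quantile normalization. Of the 3 other Atp2a2 probe sets 1 was higher (0.30), 1 lower (-0.45) and 1 not called. The calcineurin subunit Ppp3r1 was higher at 0.57 ± 0.07, as were the sodium-calcium exchanger Slc8a1 (0.43) and S100a10 (0.49).

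The lower calcium genes included channel subunits. Cacna2d1, the alpha-2/delta subunit of the L-type calcium channel, read 27.6, 9.8, 28.0 and 27.1 in SHR and 56.8, 63.8, 72.1 and 97.2 in WKY (-0.92 ± 0.12, adjusted p = 3.16e-06). Its beta subunit Cacnb2 (-0.45), the junction protein Jph2 (-0.45), Dhrs7c, a reductase of the sarcoplasmic reticulum (-0.78), the calcineurin subunit Ppp3ca (-0.29) and Asph (-0.33) were lower too. Of the 10 calcium genes, Slc8a1, Jph2, Ppp3ca and Asph lost their calls under several alternatives.

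Of 30 ion transport genes 6 were lower (20%, against 8.68% of all genes) and 2 higher (6.67%, against 10.9%). Their median was -0.02. Counted by probe set, 7 of 54 were lower and 5 higher, so the lean to lower values was smaller. Atp1b1, the beta subunit of the sodium pump, read 524.6, 561.4, 603.5 and 570.5 in SHR and 1004.4, 1007.3, 880.3 and 987.0 in WKY (-0.75 ± 0.11, adjusted p = 1.9e-05), but its 2 other probe sets were not called. Slc4a3, an anion exchanger (-0.69 ± 0.11), Kcnd2, a potassium channel of the transient outward current (-0.44), and the chloride transporter Clcn3 (-0.63) were lower without overlap. Kcne1, a regulatory potassium channel subunit, was higher at 1.03 ± 0.31, although its SHR arrays spanned 62.4 to 391.5 and overlapped WKY, and its call was lost under 6 alternatives.

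Of 30 genes of the renin-angiotensin and vasoactive list 2 were higher (6.67%) and 1 lower (3.33%). Ptgis, the prostacyclin synthase, was higher at 0.52 ± 0.10. Ace, the angiotensin-converting enzyme, read 45.1, 32.8, 25.3 and 41.3 in SHR and 29.1, 29.4, 28.9 and 35.7 in WKY, and Agt, the angiotensin precursor, 28.6, 6.5, 14.3 and 21.4 against 21.5, 21.6, 20.0 and 17.7. Neither was called (adjusted p = 0.486 and 0.671), and both were dim. Among 34 genes of adrenergic and G protein signalling 4 were higher (11.8%) and 3 lower (8.82%), near the shares of all genes. Prkaca, a catalytic subunit of protein kinase A, was lower (-0.48 ± 0.11), and the muscarinic receptor Chrm2 (0.34), the G protein subunits Gnb1 (0.86) and Gna12 (0.50) and protein kinase C alpha, Prkca (0.32), were higher.

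Maoa, the monoamine oxidase that degrades noradrenaline and serotonin, read 856.2, 1361.4, 1475.4 and 1337.4 in SHR and 430.8, 515.3, 441.9 and 519.1 in WKY (1.32 ± 0.13, adjusted p = 1.06e-07), and its other probe set was higher by 0.90. In the glutathione and xenobiotic list 3 of 37 genes were higher (8.11%) and 5 lower (13.5%), near the shares of all genes, and with arrays centred on their medians 2 were higher and 10 lower. Gstm2 read 236.7, 217.5, 178.7 and 188.9 in SHR and 440.8, 357.2, 349.0 and 330.4 in WKY (-0.76 ± 0.11). Gstm7 (-0.92 ± 0.21) and Gstp1 (-0.49 ± 0.10) were lower and Gstm1 higher (0.41 ± 0.13, a call lost under several alternatives). The Gstm genes are close copies, so their signal may be shared between probe sets. Ephx2, the soluble epoxide hydrolase, read 157.9, 87.2, 75.3 and 78.1 in SHR and 58.4, 64.8, 46.7 and 53.9 in WKY (0.54 ± 0.15, adjusted p = 0.00978). It was not called without SHR replicate 1 or with day 3 alone. Gpx3, a secreted glutathione peroxidase, read 1037.2, 1661.4, 1372.8 and 956.5 against 522.3, 586.6, 634.6 and 494.8 (1.10 ± 0.17). The heme oxygenase Hmox1 was higher at 0.41.

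Sod1, the cytosolic superoxide dismutase, was called in both directions by its probe sets. The brightest was lower at -0.35, a call lost under 7 alternatives, and M25157mRNA_i_at was lower at -0.64. The probe set Y00404_s_at was higher at 1.19, reading 417.3, 552.1, 544.2 and 545.4 in SHR and 218.8, 217.0, 210.0 and 179.4 in WKY. Over the whole array 1271 genes had at least 2 tested probe sets, and 509 of them had a called one. In 23 of these the calls went both ways.

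Of 28 heat shock and chaperone genes 6 were lower and 1 higher (median -0.06). With the SHR arrays of day 3 alone 1 was lower and 1 higher, and with arrays centred on their medians 11 were lower and 0 higher. Counted by probe set, 9 of 61 were lower and 8 higher, so the lean to lower values depends on taking the brightest probe set. Hspe1 (-0.58) and Hspd1 (-0.50), which together fold imported proteins, and Hspa9 (-0.60), which pulls them in, were among the 6 lower genes. All 3 calls were lost with the SHR arrays of day 3 alone. The 2 other probe sets of Hspa9 and the 1 other of Hspd1 were not called. Dnaja3, a mitochondrial co-chaperone outside that list, read 19.1, 11, 10.5 and 24 in SHR and 63.9, 58.6, 52.1 and 66.3 in WKY (-0.94 ± 0.11, adjusted p = 1.63e-06).

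Amino acid genes held calls on both sides, 6 higher and 8 lower of 31 (median -0.11). Amd1, which makes decarboxylated S-adenosylmethionine for polyamines, read 21.6, 17.7, 19.0 and 20.1 in SHR and 72.3, 69.4, 84.0 and 76.8 in WKY (-1.06 ± 0.09, adjusted p = 3.54e-09). The branched-chain enzymes Bcat2 (-0.77 ± 0.09), Bckdha (-0.70) and Bckdhb (-0.50) and the aspartate aminotransferases Got2 (-0.74) and Got1 (-0.54) were lower. The other probe set of Got2 was not called. Aldh6a1, which acts later in valine breakdown, was higher: it read 174.0, 111.4, 168.7 and 210.9 against 64.3, 55.3, 69.8 and 62.5 (1.04 ± 0.14). Glul, the glutamine synthetase, was higher at 0.68 ± 0.10.

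Antigen presentation genes also divided. Of 21 genes 5 were higher (23.8%, against 10.9% of all genes) and 4 lower (19%, against 8.68%). Counted by probe set the balance turned, with 7 of 40 higher and 10 lower. RT1-CE16, a class I gene, read 1674.1, 1688.5, 1382.1 and 1495.2 in SHR and 754.4, 791.9, 833.4 and 809.0 in WKY (0.94 ± 0.12). RT1-Da, a class II chain, was higher at 0.61 ± 0.17, although SHR replicate 1 at 101.1 lay below all WKY arrays. Psmb8, an immunoproteasome subunit, was higher (0.43), while the proteasome activators Psme2 (-0.67) and Psme1 (-0.55) and the peptide transporter Tap1 (-0.53) were lower. The RT1-Da call was lost under 4 alternatives. RT1 class I genes are near-identical copies, so the value for RT1-CE16 is uncertain. Of 54 tested genes of growth factors and TGF-beta signalling 10 were higher (18.5%, against 10.9% of all genes) and 2 lower (3.7%, against 8.68%). Their median was 0.06. Fgf1 was among the higher genes (0.59 ± 0.11), and Pdgfa (-0.70 ± 0.12) and the binding protein Igfbp3 (-0.62 ± 0.14) were lower.

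Of 24 genes linked to the SHR strain or to rat blood pressure 7 were higher and 0 lower (median 0.14). Besides Nppa, Tpm4, Fn1, Ephx2 and Gstm1 they were Add3, an adducin of the membrane skeleton (0.24), and Sirpa, an inhibitory receptor of myeloid cells (0.28). Among 44 genes picked by a ribosomal protein symbol, 7 were higher (15.9%, against 10.9% of all genes) and 2 lower (4.55%, against 8.68%). Their median was 0.15. The symbols also took in the kinase gene Rps6kb1, so these counts are not of ribosomal proteins alone.

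Large differences also lay in genes outside these lists. The probe set X62951mRNA_s_at, which the annotation gives no symbol, read 191.8, 207.2, 301.0 and 276.0 in SHR and 9.4, 8.1, 10.2 and 9.3 in WKY (adjusted p = 3.04e-15 in limma). Its WKY levels lay below the median intensity of those arrays, so no fold is given. No array came near the other group. Akip1, a kinase-anchoring interactor, read 118.5, 207.8, 207.7 and 145.1 in SHR and 36.8, 62.7, 37.9 and 43.0 in WKY (1.37 ± 0.13), and its 3 other probe sets were higher too. Dcaf6 read 237.2, 232.9, 241.7 and 254.5 against 89.4, 93.6, 101.4 and 108.8 (1.07 ± 0.11), and Emp1, a membrane protein, was higher at 1.05 ± 0.09. Klf9, a transcription factor that responds to glucocorticoids, read 75.4, 48.6, 117.4 and 139.3 against 226.8, 212.2, 208.5 and 228.2 (-1.04 ± 0.18). Ppp2r3a (-0.95), Cidea, a lipid droplet protein (-0.93), Ttc3 (-0.91) and Ginm1 (-0.84) were also lower without overlap. Myh1, a skeletal muscle myosin, was higher at 0.97 ± 0.11. Myosin heavy chain genes are close copies, so this value is uncertain.

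The strain difference at 16 months was set beside those at 12 and 20 months. At 12 months 824 probe sets differed (11.3%) and at 20 months 1263 did (17.4%). Of the 1408 called at 16 months, 556 were called the same way at 12 months, which is 39.5% of the 16-month calls and 67.5% of the 12-month calls. At 20 months 779 were called the same way, 55.3% of the 16-month calls and 61.7% of the 20-month calls, and 433 were called the same way at all 3 ages. All 3 comparisons share the confounding of strain with cocktail and day, and that at 16 months is also confounded with station. When the change of the strain difference was itself tested, 0 probe sets passed between 12 and 16 months in limma and 0 between 16 and 20 months. At an unadjusted p below 0.05 there were 516 and 546, against 364 expected by chance, and the smallest adjusted p values were 0.0559 and 0.165.

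The matrix list held 10 higher genes at 12 months, 18 at 16 and 28 at 20, with medians of 0.09, 0.24 and 0.47. All genes together had 5.83% higher at 12 months and 10.1% at 20 months. For Thbs4 the strain difference was 0.97 at 12 months, 1.96 at 16 and 2.66 at 20. The step from 12 to 16 months was 0.98 (limma adjusted p = 0.166). Fatty acid genes had 5 lower members at 12 months and 17 at both later ages, with medians of -0.03, -0.19 and -0.28, beside 4.99% and 8.01% of all genes lower at 12 and 20 months. Respiratory chain and citrate cycle genes had 2, 16 and 25 lower members. These steps between ages describe the lists and were not tested as lists, and in single genes none passed the adjusted test.

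**Figure D5:**
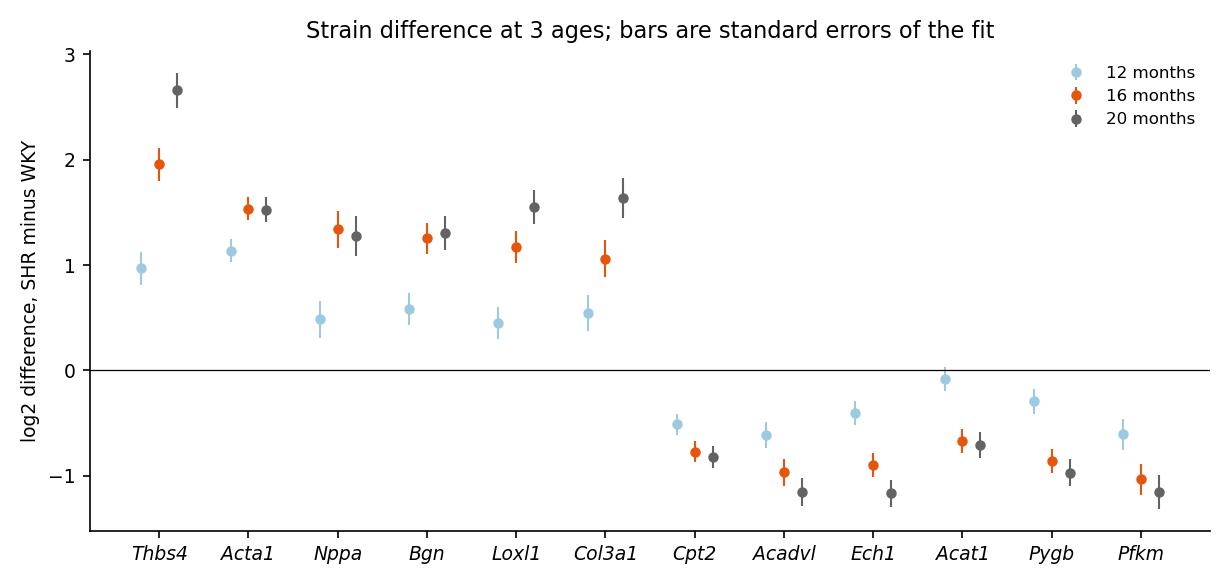
The log2 difference between SHR and WKY (vertical axis) with its standard error is plotted for 12 genes at 12, 16 and 20 months. Thbs4 goes from 0.97 over 1.96 to 2.66, and Acat1 from -0.08 over -0.67 to -0.71; no step between ages passed the adjusted test.

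Acat1 was at -0.08 at 12 months (adjusted p = 0.711), -0.67 at 16 and -0.71 at 20. Nppa was at 0.48, 1.34 and 1.28, and Acta1 at 1.14, 1.53 and 1.53. Hbb-b1 was lower in SHR at 16 months (-0.62, with overlapping groups) and higher in value at 12 (0.21) and 20 months (0.36). The change from 12 to 16 months had an unadjusted p of 0.00029 and that from 16 to 20 months of 6.74e-05, and neither passed adjustment over all probe sets.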

How the data were processed

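Left ventricular total RNA was hybridized to Affymetrix rat expression arrays, per the labels. The authors deposited linear scaled intensities, 1 value per probe set and array; no source used here names the summarising program or its target. The array totals give no read depth, and the number of arrays limits the precision. Of 8799 probe sets, 59 controls were left out. Intensities were taken as log2(intensity + 32), which understates the change of dim genes. The 7277 probe sets above the 30th percentile on at least 3 arrays were fitted with limma 3.58.1 in R 4.3.3 over all 23 arrays, with 6 group means, a trend and Benjamini-Hochberg adjustment; a call is an adjusted p below 0.05. Differences are SHR minus WKY with standard errors. Of 8740 probe sets other than controls, the annotation named a single gene for 7006, more than one for 308 and no gene for 1426; 5917 of the tested ones had a single gene, and a gene is represented by its brightest tested probe set. Named are up to 15 genes per direction without overlap and up to 4 members per list; further called members of lists, and Kctd13, were named after their values were seen. The members and lists were chosen with earlier results of these data known. The fit was tested on simulated data. Same-numbered arrays of the strains deviated with correlations of 0.04, -0.04, -0.15 and 0.04, so the numbers do not pair the samples. Promoters were found for 122 of 156 named genes in RefSeq's GRCr8 table. Alternatives changed the added value, normalization, filter, variance model, block and arrays.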

Additional observations from a re-analysis of the deposited data

Results flagged for a closer look

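In 18 of 312 groups of 4 arrays examined, 1 array lay far from the other 3; chance flags about 1 in 20 groups. In WKY the outlying arrays were high for Ace (35.7 on replicate 4, others 28.9 to 29.4), Cpt1b (957.7 on replicate 4, others 790.8 to 809.8), Tgfb2 (16.5 on replicate 2, others 2.8 to 4.1) and Kctd13 (423.3 on replicate 1, others 41.9 to 74.2). They were low for Atp1b1 (880.3), Etfdh (142.8), Fgf1 (25.6) and Lamc1 (54.6) on replicate 3 and for Atp5f1a (814.2) and Cd14 (18.9) on replicate 2. They were also low for C1qc (48.7) and Cidea (176.3) on replicate 1 and for Sod1 (679.0) on replicate 4. In SHR the outlying arrays were high for Cav1 (99.1) and Pdgfa (10.9) on replicate 4 and for Ephx2 (157.9) and Pkm (1178.7) on replicate 1, and low for Cacna2d1 (9.8) on replicate 2.

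Kctd13, chosen after its values were seen, had the largest log2 rise of all tested probe sets, 2.88 ± 0.77 (limma adjusted p = 0.00909). It read 798.4, 327.6, 1857.5 and 1654.0 in SHR and 423.3, 41.9, 59.3 and 74.2 in WKY. The groups overlapped, its 2 other probe sets were not called, and the call was lost with the SHR arrays of day 2 alone.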

How the results depend on the processing

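For SHR minus WKY at 16 months the count of 1408 probe sets stayed within 1.5 times under the other scalings, filters and variance models. It was 849 with the SHR arrays of day 3 alone, 423 with a log2 change of at least 0.5 and 772 at an adjusted p below 0.01. It ran from 1080 to 1404 when 1 array was left out. With the replicate number as a block it was 1342, though no pairing by number was seen. With hybridization day as a random block it was 1084. Between 12 and 16 months the count of 0 became 1 with arrays centred on their medians, 3 with only the groups compared and 2 with the replicate block, and ran from 0 to 6 when 1 array was left out. Between 16 and 20 months it ran from 0 to 3. The 27 probe sets between days became 17 after quantile normalization, and 0 to 132 when 1 array was left out (132 without SHR replicate 2, 0 without replicate 3 and 8 without replicate 4). Directions turned for Atp2a2 (-0.25) and Myl2 (-0.17) after quantile normalization. Myh7 turned after quantile normalization (-0.54), cyclic loess (-0.16), without SHR replicate 1 (-0.0730), without WKY replicate 2 (-0.02) and with day 3 alone (-0.15), and ran from -0.0730 to 0.195 when 1 SHR or WKY array was left out. When 1 array was left out Agt ran from -0.192 to 0.0257 and Cd36 from -0.245 to 0.0235, both positive without SHR replicate 2, and Cd36 was 0.13 with day 3 alone and -0.41 with day 2 alone, where it was called (limma adjusted p = 0.0355); the cause was not tested. Of 148 called named genes 97 kept call and direction under every alternative run, 51 lost the call in at least 1, and Myl2 turned. Dim genes are limited by the signal over background.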
